A study of Homo sapiens with 6 samples.

Results

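The ATF4 program of the integrated stress response was followed as 37 genes in C42 prostate cancer cells after knockdown of NSD2. The 37 were taken by symbol from a table of raw read counts, where each had a row among 31413 genes, and all 37 passed the low-count filter. They were 13 regulators and stress effectors, 9 enzymes of amino acid and folate metabolism, 7 amino acid transporters and 8 cytosolic aminoacyl-tRNA synthetases under their older symbols. The knockdown group held 3 RNA-seq libraries of C42 cells with an shRNA against NSD2, also named WHSC1 (shNSD2 1, 2 and 3). Its control held 3 libraries of C42 cells with a control shRNA (shCTR 1, 2 and 4). C42, usually written C4-2, descends from the LNCaP human prostate cancer line, and NSD2 is a methyltransferase of histone H3 lysine 36. Both groups grew in RPMI medium with serum and antibiotics. Neither the hairpins nor the cultures or clones behind each library are described in the labels, so a p-value here reflects library-to-library spread and that spread may be technical.

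The integrated stress response begins with kinases that phosphorylate the translation initiation factor eIF2 when amino acids run short, unfolded protein builds up in the endoplasmic reticulum, double-stranded RNA appears or mitochondria fail. Bulk translation then slows while the mRNA of ATF4, a basic leucine zipper transcription factor, is translated more, because of short upstream open reading frames in its leader. ATF4 pairs with C/EBP family proteins and binds C/EBP-ATF response elements in genes for amino acid synthesis, amino acid uptake, tRNA charging and feedback on eIF2. Transcript counts do not show eIF2 phosphorylation or the amount of ATF4 protein.

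Libraries held 19412896 to 20665494 counts, and a floor of 3 counts stood at 0.145 to 0.156 CPM (a count divided by its library's TMM-scaled total over the genes tested and scaled up to a fixed common total), which covers counting error only. NSD2 had 85.3, 86.4 and 89.7 CPM in shNSD2 1, 2 and 3, against 219, 223 and 200.1 CPM in shCTR 1, 2 and 4. The knockdown libraries held 40.7% of the control level (log2 fold change -1.30, SE 0.0870, edgeR adjusted p = 8.03e-05). All 8 luminal prostate markers were above 0 in every library, with KLK3 between 5590.1 and 7038 CPM, and summed to 9653 to 10275 CPM with shNSD2 and 10748 to 11639 CPM with shCTR, with 2 of the 8 higher and 2 lower. Of 5 leukocyte markers 3 had a row, PTPRC and CD3E not among them, and these summed to 7 to 20 counts with shNSD2 and 10 to 13 counts with shCTR. Of 6 fibroblast and endothelial markers 4 had a row, with sums of 9.21 to 10.6 CPM with shNSD2 and 7.14 to 7.58 CPM with shCTR. Both that passed the low-count filter, VWF and PDGFRB, were higher in every knockdown library than in every control. VWF, an endothelial marker, had 7.24, 8.06 and 7.37 CPM in shNSD2 1, 2 and 3, against 5.72, 5.64 and 5.47 CPM in shCTR 1, 2 and 4, and was called higher (log2 fold change 0.43, edgeR adjusted p = 0.0273). PDGFRB was not called (0.33, adjusted p = 0.248). The part of these markers in the results was not tested. In bulk RNA, a change in the share of cells with a transcript and a change in its level per cell cannot be told apart.

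The core of the C/EBP-ATF element, TGATGNAA, marks where ATF4 and a C/EBP partner can bind, so the members' promoters were searched for these letters on both strands. RefSeq promoter windows on GRCh38.p14, from 250 bases before to 50 bases after an annotated start, were matched for 33 of the 37 genes, with all 8 synthetases found under their current symbols ending in 1. The letters stood in at least 1 window of 13 of the 33 genes (39.4%), against 1217 of 27305 genes in the whole promoter table (4.46%). By windows, which differ in number per gene, the shares were 13 of 53 (24.5%) and 1270 of 35116 (3.62%). The members were listed as genes of the ATF4 program, so these shares are set side by side as a description, not a test. A match is a description of the letters and not a measured binding site. The 30 bases around each match are shown because the element occurs both in genes that rose and in genes that were not called, with the match in capitals and every sequence written along the gene's own strand. These 7 belong to genes whose transcripts rose:
ATF3: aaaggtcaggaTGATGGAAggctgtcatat
CEBPG: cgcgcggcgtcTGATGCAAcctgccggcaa
CHAC1: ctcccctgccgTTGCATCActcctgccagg
ASNS: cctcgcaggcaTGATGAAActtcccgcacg
AARS: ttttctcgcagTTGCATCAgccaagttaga
GARS: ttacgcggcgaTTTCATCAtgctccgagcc
NARS: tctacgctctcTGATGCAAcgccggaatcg

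On GRCh38.p14 the windows lie at chr1:212565205-212565234 for ATF3, chr19:33374060-33374089 for CEBPG, chr15:40953251-40953280 for CHAC1, chr7:97872458-97872487 for ASNS, chr16:70289675-70289704 for AARS, chr7:30594834-30594863 for GARS and chr18:57621804-57621833 for NARS. ATF3, CEBPG, CHAC1 and GARS lie on the plus strand, and ASNS, AARS and NARS on the minus strand. The left end of the match, as written, lay 191 bases before the start in ATF3, 42 in CEBPG, 209 in CHAC1, 68 in ASNS, 187 in AARS and 33 in GARS, and 14 bases after it in NARS. The start is that of the promoter window with the match. ATF3, CEBPG, ASNS and GARS each had 2 promoter windows, at different annotated starts, and 1 of these held the match. The other 6 matches belong to genes whose transcripts did not pass the test:
SLC7A1: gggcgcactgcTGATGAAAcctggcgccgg
SLC3A2: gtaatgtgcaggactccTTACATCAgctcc
SLC1A4: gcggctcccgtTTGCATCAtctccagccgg
SLC1A5: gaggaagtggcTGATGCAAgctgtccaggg
MARS: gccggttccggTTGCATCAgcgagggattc
IARS: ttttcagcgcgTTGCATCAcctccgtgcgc

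Their windows lie at chr13:29595663-29595692 for SLC7A1, chr11:62881719-62881748 for SLC3A2, chr2:64989381-64989410 for SLC1A4, chr19:46784893-46784922 for SLC1A5, chr12:57488053-57488082 for MARS and chr9:92293692-92293721 for IARS, with SLC3A2, SLC1A4 and MARS on the plus strand and SLC7A1, SLC1A5 and IARS on the minus strand. The letters TGATGCAA, the form with C at the open position on either strand, were present in CEBPG, CHAC1, AARS and NARS among the genes that rose and in SLC1A4, SLC1A5, MARS and IARS among those not called. Of members that rose, 7 of the 20 with a window held a match (35.0%), and of the remaining members 6 of 13 did (46.2%). Elements outside the windows or with other letters were not counted, so a gene without a match may still have an element. By class the count was 4 of 6 transporters, 5 of 8 synthetases, 3 of 13 regulators and 1 of 6 enzymes. SLC3A2 and SLC1A5 each had 3 promoter windows and SLC1A4 had 2, and in each gene 1 of them held the match. The full ASNS window, chr7:97872359-97872658 on the minus strand, is given because this promoter is the textbook case of amino acid control and shows how close the element lies to the start, which is 50 bases from the window's right end:
ASNS promoter: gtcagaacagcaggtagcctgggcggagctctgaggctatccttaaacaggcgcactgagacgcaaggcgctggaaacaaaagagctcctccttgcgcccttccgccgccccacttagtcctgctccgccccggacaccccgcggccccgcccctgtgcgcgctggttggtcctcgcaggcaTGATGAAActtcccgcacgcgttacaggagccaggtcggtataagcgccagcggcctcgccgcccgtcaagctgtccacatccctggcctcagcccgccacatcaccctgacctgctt

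In the count comparison, 22 of the 37 members rose and 1 fell after NSD2 knockdown at an adjusted p under 0.05 (edgeR quasi-likelihood test, adjusted over all genes). Over all 17160 genes tested, 15.5% rose and 15.2% fell. The members were chosen with earlier results of these data known, so the 2 shares are set side by side as a description, not a test. The 22 rises ran from 1.31-fold to 2.64-fold, with a median of 1.46-fold. The median log2 fold change of all 37 was 0.44, against 0.01 for all genes tested. In CPM, every knockdown library lay above every control library for 23 members and below for 1, against 24.0% and 22.8% of all genes. The members split by class. Rises were seen in 10 of 13 regulators, 7 of 9 enzymes and 5 of 8 synthetases, and in 0 of 7 transporters, where 1 fell. The median log2 fold change was 0.54 for regulators, 0.48 for enzymes, 0.43 for synthetases and -0.09 for transporters. No test was made between classes. Leaving out a library moved the number of members that rose to between 11 and 23, and 10 of the 22 kept their call in all 6 such fits.

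**Figure D1:**
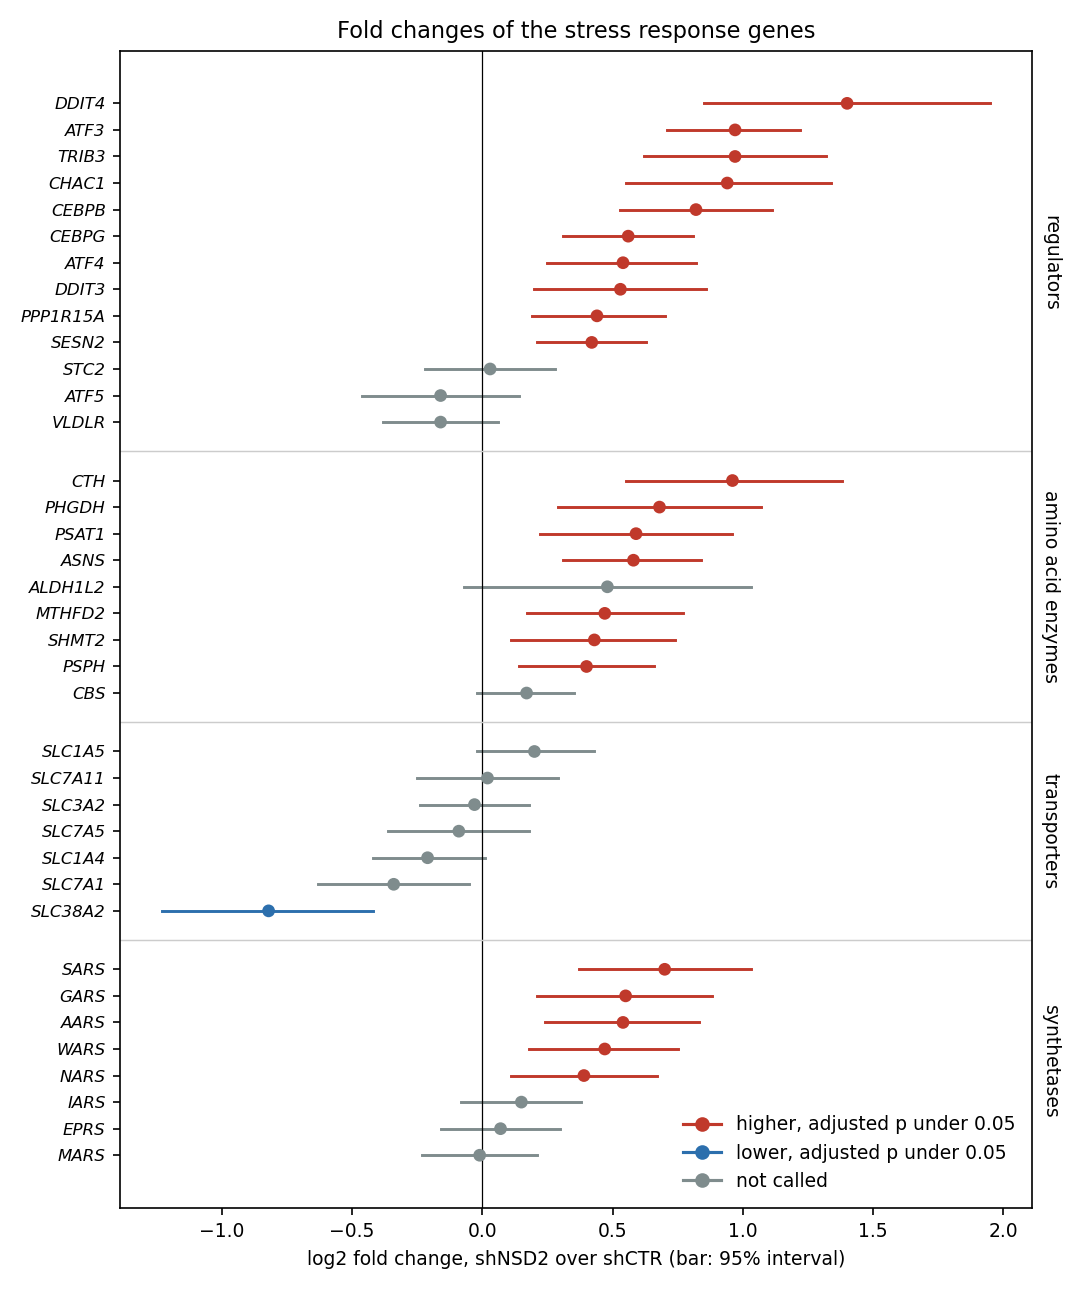
Log2 fold change of each of the 37 genes, shNSD2 over shCTR (x axis), with 95% intervals from the edgeR fit as bars, grouped by class down the page. Red marks the 22 genes that rose, blue the 1 that fell and grey those not called; DDIT4 stands highest at 1.4 and SLC38A2 lowest at -0.82.

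ATF4 itself rose 1.45-fold. It had 860.4, 782 and 868 CPM in shNSD2 1, 2 and 3, against 483, 579 and 670.4 CPM in shCTR 1, 2 and 4. The lowest knockdown library stood above the highest control, and the controls spread more widely than the knockdown libraries. Its mean was 837 ± 47.6 CPM with shNSD2 and 577 ± 93.6 CPM with shCTR (SD, n = 3 each). The fitted log2 fold change was 0.54 (SE 0.130, adjusted p = 0.0133). Permuting the library labels exactly gave a two-sided p = 0.1, the lowest value possible with 3 libraries a group. ATF4 (ENSG00000128272) lies on chromosome 22 of GRCh38 from 39519695 to 39522685.

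Among the transcription factors that act with or after ATF4, 4 of 5 rose. ATF3, a stress-induced factor of the same family, had 60, 53.7 and 56.7 CPM in shNSD2 1, 2 and 3, against 25.9, 26.7 and 34.6 CPM in shCTR 1, 2 and 4. The knockdown libraries all stood far above the controls, and ATF3 had the smallest adjusted p of the 37 genes (7.54e-04), at a log2 fold change of 0.97 (SE 0.116). CEBPB, a C/EBP partner of ATF4, had 88.5, 77.4 and 84.3 CPM in shNSD2 1, 2 and 3, against 39.4, 44.1 and 58.3 CPM in shCTR 1, 2 and 4, and rose by 0.82 on the log2 scale (adjusted p = 0.00261). CEBPG, another partner, had 150.2, 136 and 133 CPM in shNSD2 1, 2 and 3, against 82.5, 91.6 and 110.3 CPM in shCTR 1, 2 and 4. It rose by 0.56 (adjusted p = 0.00619), again without overlap between groups. DDIT3, which encodes the pro-apoptotic factor CHOP, had 29.2, 30 and 36.4 CPM in shNSD2 1, 2 and 3, against 18.7, 20 and 27.5 CPM in shCTR 1, 2 and 4. Its groups were separated by a narrow gap, and it rose by 0.53 (adjusted p = 0.0222). ATF5, another ATF factor, had 27.3, 33.2 and 38.5 CPM in shNSD2 1, 2 and 3, against 32.7, 35.4 and 42.4 CPM in shCTR 1, 2 and 4. These groups overlapped, and the log2 fold change was -0.16 (95% interval -0.46 to 0.14, adjusted p = 0.391).

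The feedback genes of the pathway both rose. TRIB3, a pseudokinase that restrains AKT and ATF4, had 337, 291 and 284 CPM in shNSD2 1, 2 and 3, against 123, 145 and 198 CPM in shCTR 1, 2 and 4. Its mean was 304 ± 28.7 CPM with shNSD2 and 155 ± 38.7 CPM with shCTR (SD, n = 3 each), a 1.95-fold rise (adjusted p = 0.00272). PPP1R15A, or GADD34, directs a phosphatase to eIF2 and was low, at 11.8, 11.1 and 12.7 CPM in shNSD2 1, 2 and 3, against 8.90, 9.11 and 8.08 CPM in shCTR 1, 2 and 4. It rose by 0.44 (adjusted p = 0.0165), and it was the only member that rose in which shCTR 4 was the lowest control.

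Of 5 stress effectors, 3 rose. DDIT4, or REDD1, an inhibitor of mTORC1, rose most of all 37 genes. It had 271, 200 and 199 CPM in shNSD2 1, 2 and 3, against 51.9, 80.2 and 122 CPM in shCTR 1, 2 and 4. In CPM the gap between groups just exceeded the spread within either, while on the log2 scale the controls spread more widely than the gap. The mean was 223 ± 41.2 CPM with shNSD2 and 84.6 ± 35.2 CPM with shCTR (SD, n = 3 each), 2.64-fold higher. The log2 fold change was 1.4 (SE 0.250, adjusted p = 0.00383). CHAC1, an enzyme that degrades glutathione, had 63.5, 64.4 and 66.8 CPM in shNSD2 1, 2 and 3, against 25.9, 28.9 and 46.7 CPM in shCTR 1, 2 and 4. The knockdown libraries lay within a few CPM of each other while shCTR 4 stood well above the other controls, and the rise was 1.92-fold (adjusted p = 0.00484). SESN2, a leucine sensor that also restrains mTORC1, had 70.1, 66.4 and 65.1 CPM in shNSD2 1, 2 and 3, against 45.5, 48.7 and 56.5 CPM in shCTR 1, 2 and 4 and rose 1.34-fold (adjusted p = 0.00998). STC2, a secreted stanniocalcin, and VLDLR, a lipoprotein receptor, showed overlapping groups. STC2 had 317, 320 and 302 CPM in shNSD2 1, 2 and 3, against 299, 267 and 352 CPM in shCTR 1, 2 and 4. VLDLR had 27.2, 25.0 and 22.7 CPM in shNSD2 1, 2 and 3, against 27, 26.6 and 29.9 CPM in shCTR 1, 2 and 4, so that shCTR 4 was the highest library for both. Their log2 fold changes were 0.03 (95% interval -0.22 to 0.28) for STC2 and -0.16 (-0.38 to 0.06) for VLDLR.

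Within the regulators, the calls of ATF3, CEBPB, CEBPG, TRIB3, DDIT4, SESN2 and CHAC1 held whichever library was left out. The call of ATF4 was lost without shCTR 2 (adjusted p = 0.0550), without shNSD2 1 (0.0517) and without shNSD2 3 (0.0610). That of DDIT3 was lost without shCTR 1 (0.0663), shCTR 2 (0.0923) or shNSD2 3 (0.102), and that of PPP1R15A without shNSD2 3 (0.0815). PPP1R15A also missed the threshold after correction for GC content and gene length (log2 fold change 0.28, adjusted p = 0.0853). Exons of DDIT3 overlap MBD6 and the member MARS, those of ATF5 overlap NUP62 and those of VLDLR overlap VLDLR-AS1 on the opposite strand, and the counting strand is unknown. MARS had 6630 to 7611 counts per library, against 382 to 751 for DDIT3, and was not called (log2 fold change -0.01). MBD6 (0.02) and NUP62 (-0.06) were not called either, while VLDLR-AS1 rose by 0.84 (adjusted p = 0.0314).

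**Figure D2:**
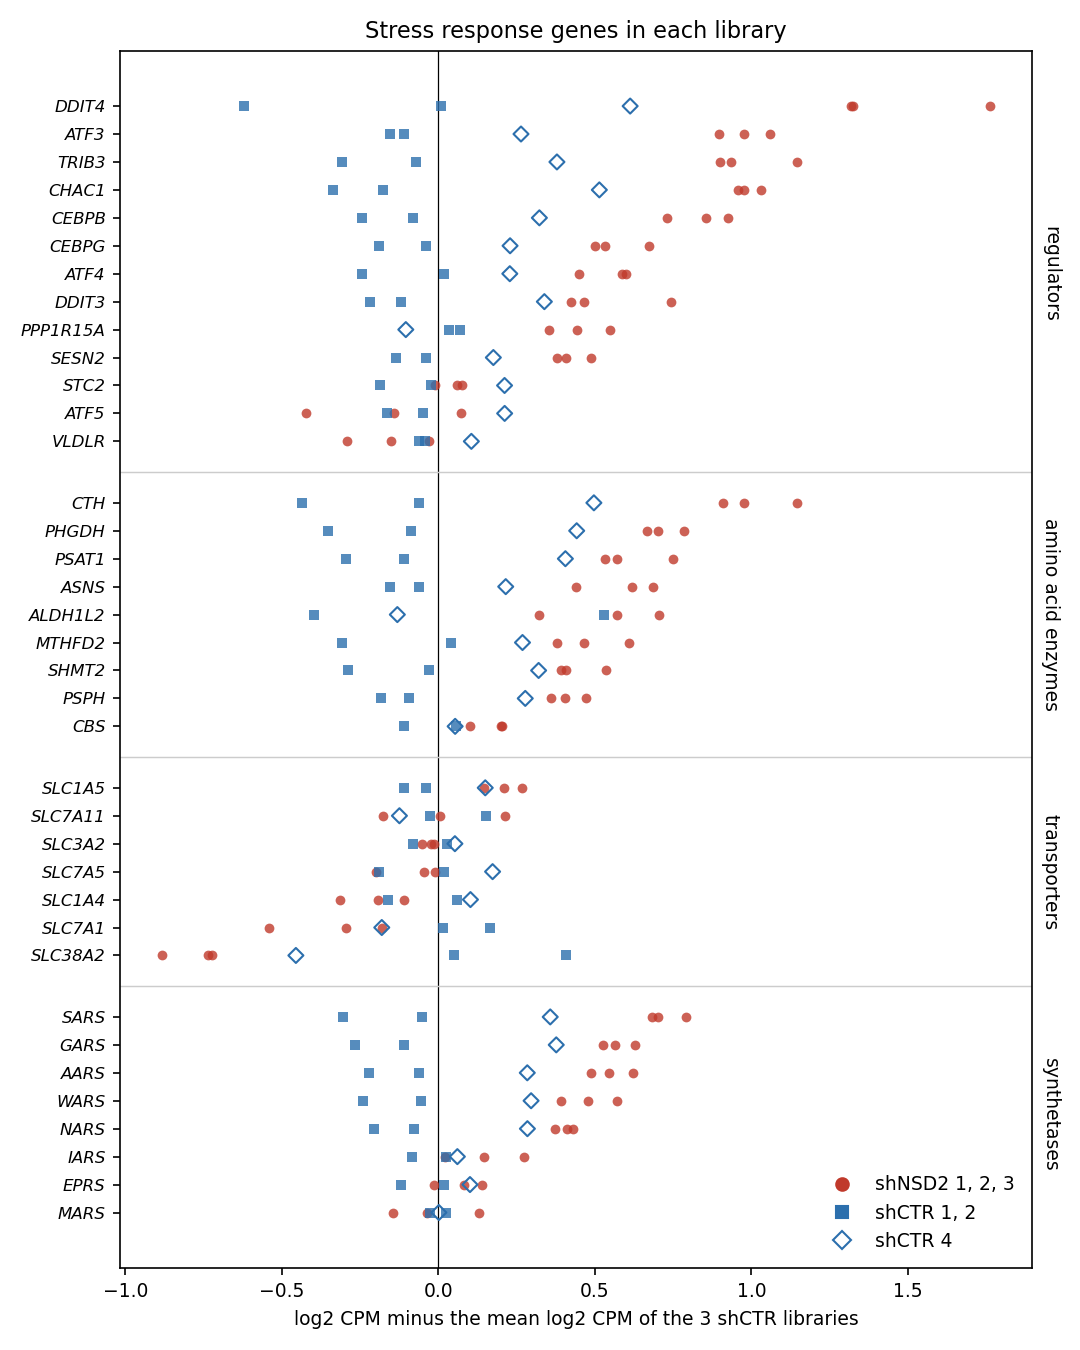
Log2 CPM of each gene in each library minus the mean log2 CPM of its 3 shCTR libraries (x axis), grouped by class. Red circles are shNSD2 libraries, filled blue squares shCTR 1 and 2, and open diamonds shCTR 4; for 21 of the 22 genes that rose the diamond lies between the squares and the circles.

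All 3 enzymes of serine synthesis rose. PHGDH, which commits the glycolytic intermediate phosphoglycerate to serine, had 939, 866 and 887 CPM in shNSD2 1, 2 and 3, against 427, 513 and 741 CPM in shCTR 1, 2 and 4. The knockdown libraries were all above the controls, of which shCTR 4 was much the highest, and the mean was 897 ± 37.5 CPM with shNSD2 and 560 ± 162 CPM with shCTR (SD, n = 3 each; log2 fold change 0.68, adjusted p = 0.0169). PSAT1, the aminotransferase of the next step, had 776, 685 and 667 CPM in shNSD2 1, 2 and 3, against 376, 427 and 611 CPM in shCTR 1, 2 and 4 and rose 1.5-fold (adjusted p = 0.0234). PSPH, the phosphatase that releases serine, had 94.4, 87.4 and 90.1 CPM in shNSD2 1, 2 and 3, against 59.9, 63.8 and 82.5 CPM in shCTR 1, 2 and 4 and rose 1.32-fold (adjusted p = 0.0268). For PSAT1 and PSPH, shCTR 4 came close to the lowest knockdown library without reaching it. The pseudogene PSPHP1 had 107 to 124 counts with shNSD2 and 74 to 96 with shCTR, against at least 1226 counts per library for PSPH. Reads may be shared between them.

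Both mitochondrial folate enzymes downstream of serine that were well counted rose. SHMT2, which turns serine into glycine, had 526, 481 and 476 CPM in shNSD2 1, 2 and 3, against 297, 355 and 453 CPM in shCTR 1, 2 and 4 and rose by 0.43 on the log2 scale (adjusted p = 0.0453). MTHFD2, which oxidises the folate-bound carbon unit, had 242, 219 and 206 CPM in shNSD2 1, 2 and 3, against 128, 163 and 191 CPM in shCTR 1, 2 and 4 and rose by 0.47 (adjusted p = 0.0263). In both, the gap between shCTR 4 and the nearest knockdown library was smaller than the spread of the controls. ALDH1L2, a formyltetrahydrofolate dehydrogenase of mitochondria, was the least abundant member at 30 to 62 counts per library. It had 3.16, 2.88 and 2.42 CPM in shNSD2 1, 2 and 3, against 1.47, 2.80 and 1.77 CPM in shCTR 1, 2 and 4, with shCTR 2 among the knockdown values, and its log2 fold change of 0.48 (95% interval -0.07 to 1.03) did not pass the test. Its exons overlap C12orf45, which had far more counts.

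ASNS, which makes asparagine, and CTH, which makes cysteine from cystathionine, also rose. ASNS had 27, 25.8 and 22.8 CPM in shNSD2 1, 2 and 3, against 15.1, 16.1 and 19.5 CPM in shCTR 1, 2 and 4. The groups did not overlap, and the rise was 1.49-fold (adjusted p = 0.00663). The pseudogene ASNSP1 had 333 to 368 counts with shNSD2 and 198 to 255 with shCTR, close to the 470 to 529 and 308 to 375 counts of ASNS, so reads may be shared between them. CTH had 51.8, 46.0 and 43.9 CPM in shNSD2 1, 2 and 3, against 17.3, 22.4 and 33 CPM in shCTR 1, 2 and 4. It rose 1.95-fold from a low control level (SE 0.187 on the log2 scale, adjusted p = 0.00522), the largest rise among the enzymes. CBS, the enzyme before CTH in the transsulfuration of homocysteine, had 81.7, 87.7 and 87.5 CPM in shNSD2 1, 2 and 3, against 79.3, 70.6 and 79.1 CPM in shCTR 1, 2 and 4. The knockdown libraries lay just above the controls, but the log2 fold change of 0.17 (95% interval -0.02 to 0.35) was not called, and reads may be split with its near-identical copy CBSL.

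The calls of ASNS and CTH held whichever library was left out. PHGDH lost its call without shCTR 2 (adjusted p = 0.0744), without shNSD2 1 (0.0604) and without shNSD2 3 (0.0571). PSAT1, PSPH, SHMT2 and MTHFD2 lost theirs in each of the 5 fits that kept shCTR 4, with adjusted p-values of 0.0543 to 0.141 and log2 fold changes of 0.28 to 0.63. The fit without shCTR 4, the highest control for all of these genes, called them higher at edgeR adjusted p-values of 1.34e-05 (PSAT1) to 2.17e-04 (MTHFD2). Every fit that left a library out had a smaller group. The parts of group size and of shCTR 4 in the lost calls were not tested. SHMT2 was not called after the GC and length correction either (adjusted p = 0.0655).

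**Figure D3:**
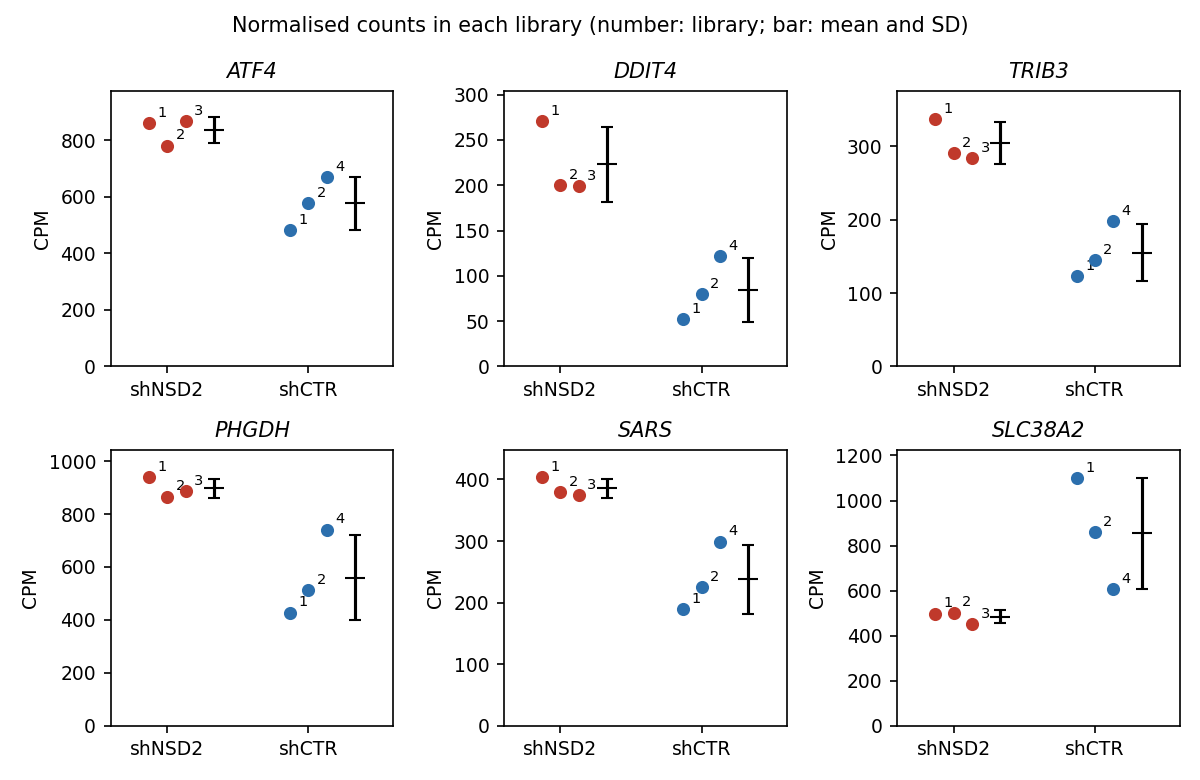
CPM of 6 genes in each library, shNSD2 left and shCTR right, with library numbers beside the points and the mean and SD (n = 3) as bars. ATF4, DDIT4, TRIB3, PHGDH and SARS are higher in all 3 shNSD2 libraries, SLC38A2 is lower in all 3, and shCTR 4 is the control nearest the shNSD2 libraries in each panel.

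Among the amino acid transporters no rise was called. By count, 0 of 7 were called higher by edgeR, DESeq2 or limma-voom, 0 had a positive change at an unadjusted p under 0.05, and SLC38A2 fell. SLC38A2, or SNAT2, a sodium-coupled carrier of small neutral amino acids, had 498, 502 and 449.5 CPM in shNSD2 1, 2 and 3, against 1099.9, 858 and 605 CPM in shCTR 1, 2 and 4. Every knockdown library was below every control, and the controls differed widely, with shCTR 4 nearest the knockdown group. The mean was 483 ± 29.2 CPM with shNSD2 and 854 ± 248 CPM with shCTR (SD, n = 3 each). Its fitted log2 fold change was -0.82 (SE 0.183, adjusted p = 0.00905). The call held whichever library was left out, with adjusted p-values of 3.13e-06 to 0.0473. SLC7A1, the cationic amino acid carrier CAT1, had 842, 777 and 655 CPM in shNSD2 1, 2 and 3, against 1069, 964 and 841 CPM in shCTR 1, 2 and 4. Here shNSD2 1 was level with shCTR 4, and the log2 fold change of -0.34 had a 95% interval of -0.63 to -0.05 and an adjusted p = 0.0745. SLC7A1 was called lower by the DESeq2 Wald test (adjusted p = 0.0287) and without shCTR 4 (log2 fold change -0.42, edgeR adjusted p = 0.00538).

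The exchangers that bring in large neutral amino acids and cystine showed overlapping groups. SLC7A5, or LAT1, had 712, 696 and 626 CPM in shNSD2 1, 2 and 3, against 727, 629 and 809.6 CPM in shCTR 1, 2 and 4. SLC3A2, the heavy chain shared by LAT1 and the cystine carrier, had 495, 498 and 485 CPM in shNSD2 1, 2 and 3, against 513, 476 and 522 CPM in shCTR 1, 2 and 4. SLC7A11, the cystine-glutamate exchanger xCT, had 417, 361 and 318 CPM in shNSD2 1, 2 and 3, against 399, 353 and 329.7 CPM in shCTR 1, 2 and 4. None of these separated the groups, and their 95% intervals on the log2 scale were -0.36 to 0.18, -0.24 to 0.18 and -0.25 to 0.29 in that order. The sodium-dependent carriers of alanine, serine and cysteine had log2 fold changes of -0.21 for SLC1A4 (95% interval -0.42 to 0.01) and 0.20 for SLC1A5 (-0.02 to 0.43). SLC1A4 had 49.7, 52.6 and 45.7 CPM in shNSD2 1, 2 and 3, against 59.2, 50.8 and 61.0 CPM in shCTR 1, 2 and 4, with shCTR 2 inside the knockdown range. SLC1A5 had 357, 388 and 373 CPM in shNSD2 1, 2 and 3, against 314, 299 and 358 CPM in shCTR 1, 2 and 4, with shCTR 4 just above the lowest knockdown library. Without shCTR 4 it was called higher at a log2 fold change of 0.28 (adjusted p = 0.0151).

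The synthetases, which load amino acids onto tRNAs, divided into 5 that rose and 3 whose groups overlapped. SARS, for serine, had 404, 379.5 and 375 CPM in shNSD2 1, 2 and 3, against 189, 225 and 299 CPM in shCTR 1, 2 and 4. It was the synthetase that rose most, at 386 ± 15.3 CPM with shNSD2 and 238 ± 56.0 CPM with shCTR (SD, n = 3 each), 1.62-fold higher (log2 fold change 0.70, adjusted p = 0.00748). AARS, for alanine, had 739, 701 and 673 CPM in shNSD2 1, 2 and 3, against 412, 460.2 and 585 CPM in shCTR 1, 2 and 4 and rose 1.45-fold (adjusted p = 0.0150). GARS, for glycine, had 653, 624 and 608 CPM in shNSD2 1, 2 and 3, against 351, 391 and 548 CPM in shCTR 1, 2 and 4 and rose 1.46-fold (adjusted p = 0.0226). In all 3 the lowest knockdown library stood above shCTR 4, the highest control. WARS, for tryptophan, rose by 0.47 on the log2 scale, with 179, 168 and 158 CPM with shNSD2 and 102, 116 and 148 CPM with shCTR (adjusted p = 0.0218). NARS, for asparagine, rose by 0.39, with 475, 469 and 457 CPM with shNSD2 and 306, 334 and 429.7 CPM with shCTR (adjusted p = 0.0411).

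The synthetases for methionine, isoleucine and the pair glutamate and proline did not pass the test. MARS had 388, 346 and 321 CPM in shNSD2 1, 2 and 3, against 361, 348 and 355 CPM in shCTR 1, 2 and 4. EPRS had 573, 551 and 515 CPM in shNSD2 1, 2 and 3, against 479, 527 and 558 CPM in shCTR 1, 2 and 4. IARS had 616, 563 and 517 CPM in shNSD2 1, 2 and 3, against 479.9, 518 and 531 CPM in shCTR 1, 2 and 4. In each the groups overlapped, and the 95% intervals of the log2 fold change were -0.23 to 0.21 for MARS, -0.16 to 0.30 for EPRS and -0.08 to 0.38 for IARS. IARS was called higher after the GC and length correction (log2 fold change 0.29, adjusted p = 0.0474). SARS kept its call whichever library was left out. AARS lost its call without shCTR 2 (adjusted p = 0.0690), shNSD2 1 (0.0589) or shNSD2 2 (0.0514), and GARS, WARS and NARS lost theirs in each of the 5 fits that kept shCTR 4 (0.0527 to 0.149).

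Upstream of ATF4, the list of eIF2 kinases, eIF2, its exchange factor and their partners had 17 genes tested. It was also chosen with earlier results of these data known. Of the 17, 2 rose (11.8%, against 15.5% of all genes) and 5 fell (29.4%, against 15.2%), with a median log2 fold change of 0.04. EIF2AK3, or PERK, the kinase of the endoplasmic reticulum, had 29.9, 30.4 and 24.9 CPM in shNSD2 1, 2 and 3, against 58.1, 46.6 and 37 CPM in shCTR 1, 2 and 4. It fell by 0.74 on the log2 scale (adjusted p = 0.00655), with all knockdown libraries below the controls. EIF2AK2, or PKR, which senses double-stranded RNA, fell by 0.49 (adjusted p = 0.00756), and GCN1, which activates the amino acid sensor kinase GCN2, fell by 0.58 (adjusted p = 0.0137). Named after their values were seen, EIF2S1, the eIF2 subunit that is phosphorylated (-0.34), and PPP1R15B, the constitutive partner of the eIF2 phosphatase (-0.43), also fell. EIF2AK1, the heme-regulated kinase (0.29), and EIF2S2, another eIF2 subunit (0.49), both also named later, rose. GCN2 itself, EIF2AK4, likewise named later, was not called (-0.16, adjusted p = 0.169). Without shCTR 4, 5 rose and 6 fell, and without any other library 0 to 1 rose and 2 to 5 fell, with 2 when shCTR 2 or shNSD2 3 was left out and 3 for shNSD2 1.

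A list of 27 other genes known to be linked to ATF4 held 14 that rose (51.9%, against 15.5% of all genes). In it 3 fell (11.1%, against 15.2%), and the median was 0.40. This list was chosen with earlier results of these data known, so its shares are a description and not a test. GDF15, a secreted stress factor, had 1636, 1121 and 1141 CPM in shNSD2 1, 2 and 3, against 332, 599 and 501 CPM in shCTR 1, 2 and 4. It was the largest change of the list, at 1.44 on the log2 scale (adjusted p = 0.00191). PCK2, the mitochondrial phosphoenolpyruvate carboxykinase, had 662, 580 and 604 CPM in shNSD2 1, 2 and 3, against 193, 256 and 401 CPM in shCTR 1, 2 and 4 and rose by 1.12 (adjusted p = 0.00500). LAMP3, a lysosomal membrane protein, rose by 1.16 from a low level (adjusted p = 0.00342). Chosen after the values were seen, FGF21, an endocrine stress factor (1.27), EIF4EBP1, a repressor of cap-dependent translation (0.93), and NUPR1, a stress-induced chromatin protein (0.88), rose as well. The 3 that fell, also chosen after seeing values, were SHMT1, the cytosolic counterpart of SHMT2 (-0.26), the transporter SLC38A1 (-0.56) and NDRG1 (-0.60). Of the 10 genes of the list not called, XBP1 (0.07) and HERPUD1 (-0.02) were also picked after the values were seen. Both answer to other arms of the unfolded protein response too, and the activity of those arms was not tested. Without shCTR 4, 17 rose and 3 fell, and without any other library 10 to 11 rose and 1 to 3 fell.

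The other synthetases and transporters were set beside the member classes, in lists also chosen with earlier results of these data known. Of 15 further genes for cytosolic synthetases and their scaffold, 3 rose (20%, near the 15.5% of all genes; median 0.24), and these were CARS for cysteine (0.59), YARS for tyrosine (0.40) and the scaffold gene AIMP2 (0.28). None of the 15 fell by edgeR, DESeq2 or limma-voom, with 8 higher and 0 lower at an unadjusted p under 0.05. Without shCTR 4, 11 rose (73.3%, against 23.9% of all genes in that fit), and without any other library 0 to 1 did, so the count depends on which libraries enter. Of 17 mitochondrial synthetases 1 rose (5.88%, against 15.5% of all genes), TARS2 (0.31), and 0 fell by edgeR, DESeq2 or limma-voom (median 0.09), with 3 higher and 1 lower at an unadjusted p under 0.05. Without shCTR 4, 5 mitochondrial synthetases rose (29.4%, against 23.9% of all genes), and without any other library 0 did. Of 18 other amino acid transporters tested, 10 fell (55.6%, against 15.2% of all genes), SLC38A1 of the list above among them, and 0 rose by edgeR, with a median of -0.52. SLC36A1, a proton-coupled carrier of small amino acids, had 46.0, 53.2 and 45.0 CPM in shNSD2 1, 2 and 3, against 135, 105 and 82.4 CPM in shCTR 1, 2 and 4, and SLC16A10, a carrier of aromatic amino acids, had 24.1, 25.4 and 22.9 CPM in shNSD2 1, 2 and 3, against 66.3, 47.7 and 40.9 CPM in shCTR 1, 2 and 4. The groups did not overlap, and SLC36A1 had a log2 fold change of -1.16 (adjusted p = 0.00131) and SLC16A10 of -1.1 (adjusted p = 0.00156). SLC38A4 fell by 2.02 (adjusted p = 0.00220) at a level under 4 CPM. At an unadjusted p under 0.05, 2 transporters of this list were higher and 10 lower, DESeq2 called 1 higher and limma-voom 0, and without shCTR 4 edgeR called 2 higher and 11 lower. Without any other library 5 to 8 were lower, with 5 when shNSD2 3 was left out and 6 for shCTR 1, shCTR 2 or shNSD2 2.

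**Figure D4:**
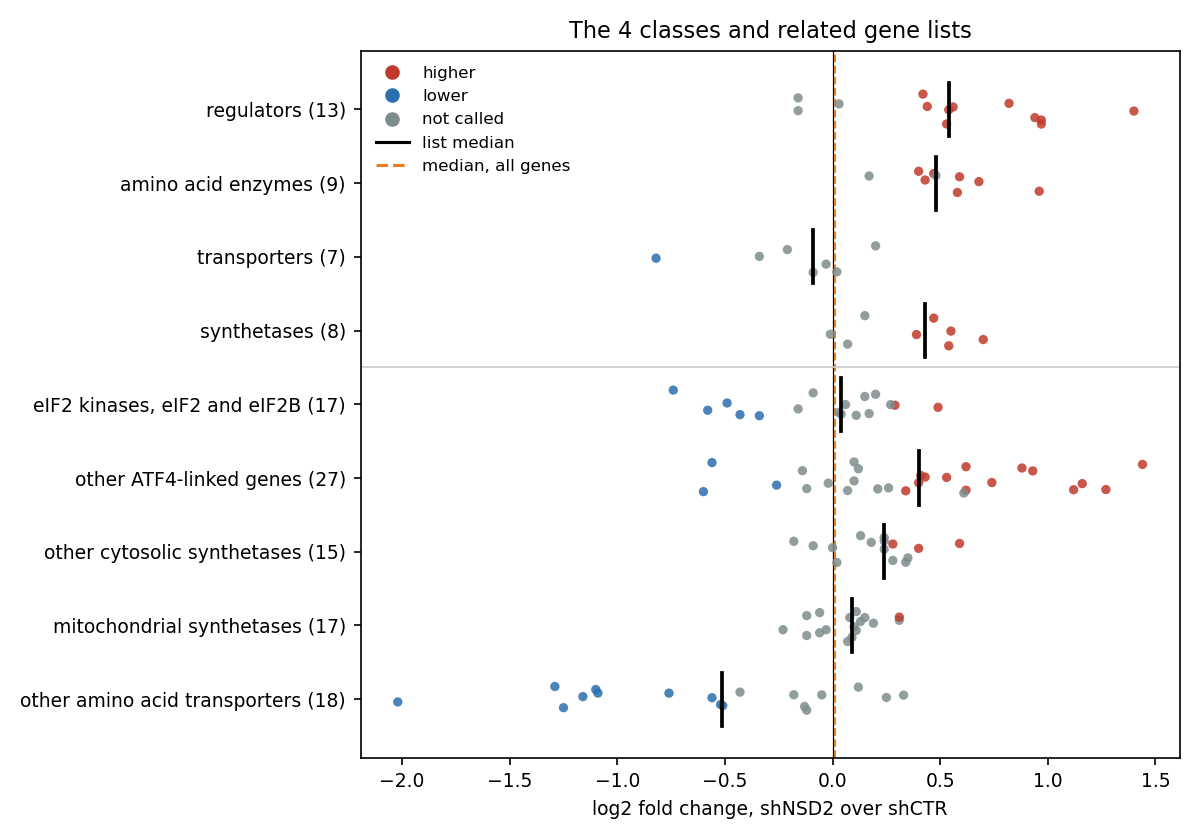
Log2 fold change, shNSD2 over shCTR (x axis), of every tested gene of the 4 member classes (top) and 5 related lists (below), with the number tested in brackets. Black bars are list medians, from 0.54 for the regulators to -0.52 for the other amino acid transporters, and the dashed line is the median of all genes tested at 0.01.

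The controls were not alike for these genes. In 21 of the 22 members that rose, shCTR 1 was the lowest library, shCTR 2 came next, and shCTR 4 lay highest among the controls and below every knockdown library. PPP1R15A was the exception. The same arrangement held for 1530 of the 2658 genes that rose in the whole table, 57.6%. Taking the shift of the knockdown mean from shCTR 1 and 2 as the whole distance, in log2 CPM, shCTR 4 stood at a median of 60.5% of the way for the members that rose, and at 41.2% for all genes that rose. For NSD2 itself the value was 10.6%. Within the members it ran from 35.8% for ATF3 to 79.1% for SHMT2, leaving out PPP1R15A at -39.6%. By class the median was 50.7% for regulators, 70.6% for enzymes and 70.4% for synthetases that rose, and SLC38A2 stood at 67.7% on the way down. What sets shCTR 4 apart was not tested.

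Against shCTR 1 and 2 alone, 23 members rose and 2 fell, where 23.9% and 22.6% of the 17756 genes then tested did so. The median log2 fold change of the members was 0.55. The largest rises were DDIT4 at 1.76, CTH at 1.25, CHAC1 at 1.24 and TRIB3 at 1.18. ATF4 stood at 0.66 (adjusted p = 1.12e-04). The added calls were SLC1A5 upward and SLC7A1 downward. Leaving out any other library lowered the number of members that rose: 14 when shCTR 1 was dropped and 11 when shCTR 2 was. For shNSD2 1, 2 and 3 the numbers were 12, 14 and 11.

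**Figure D5:**
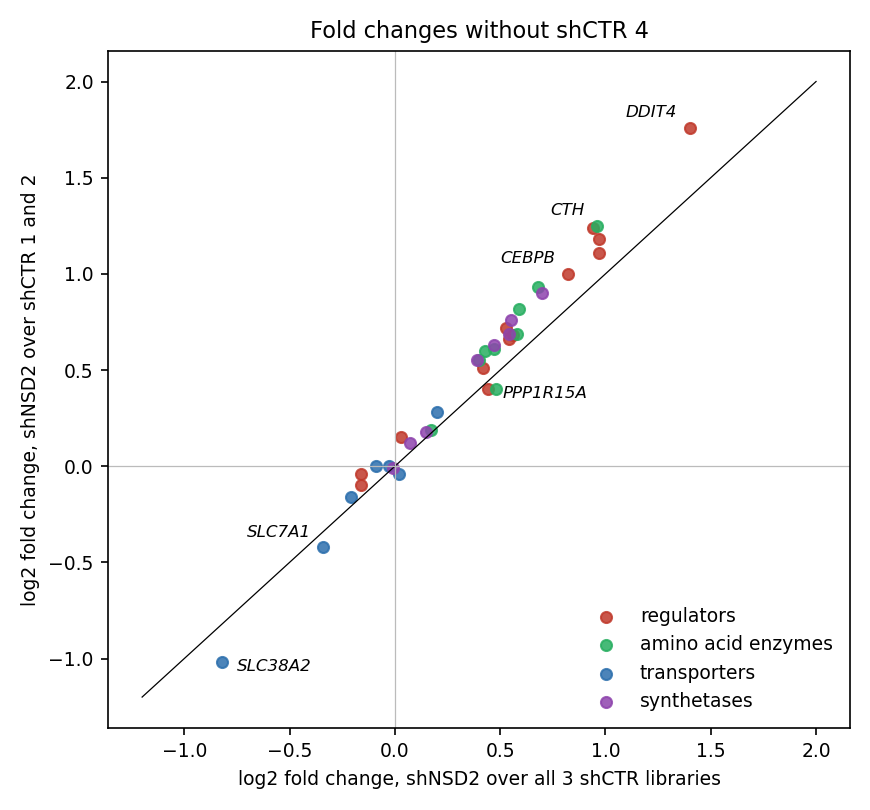
Log2 fold change of each gene against shCTR 1 and 2 (y axis) over that against all 3 controls (x axis), coloured by class, with the line of equality. Genes that rose lie above the line except PPP1R15A, and SLC38A2 lies below it at -1.02 against -0.82.

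Per kilobase of merged exon, ATF4 was the most abundant of the 37 transcripts in both groups, at 333 RPKM with shNSD2 and 229.7 RPKM with shCTR (CPM per kilobase, group means). PSAT1 followed at 324 RPKM with shNSD2 and 215 RPKM with shCTR. The synthetases ran from 26.5 RPKM for WARS to 157 RPKM for AARS with shNSD2, and from 19.2 to 108 RPKM with shCTR. The 4 lowest with shNSD2 were ASNS at 5.66 RPKM, PPP1R15A at 3.83 RPKM, VLDLR at 2.67 RPKM and ALDH1L2 at 0.332 RPKM. With shCTR these 4 had 3.80, 2.81, 2.98 and 0.236 RPKM. DDIT4 had 109 RPKM with shNSD2, near the glycine-forming enzyme SHMT2 at 102 RPKM. With shCTR, DDIT4 had 41.1 RPKM and SHMT2 76.1 RPKM. SLC38A2 had 73.2 RPKM with shNSD2, below SLC7A5, SLC1A5, SLC7A1 and SLC3A2, and 129 RPKM with shCTR, below SLC7A5 alone. Merged exons can be longer than the expressed transcript, so levels compare genes only roughly.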

How the data were processed

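RNA-seq libraries of C42 cells were analysed as 3 shNSD2 and 3 shCTR libraries, grouped by the labels. The deposited table held raw counts per Ensembl gene, which the authors made; per the submitters' processing notes CASAVA 1.8.2, STAR 2.6.0a and GRCh38 were used. No source used here gives the counting program, its annotation or its strand setting. Of 31413 genes, 17160 passed edgeR's filter on low counts. Libraries were scaled by TMM and compared with edgeR 4.0.16 (quasi-likelihood test, shNSD2 over shCTR, no covariates, R 4.3.3), with Benjamini-Hochberg adjustment over all genes tested and a threshold of 0.05. The ± values are SDs. Alternatives used other scalings and filters, DESeq2 1.42.0, limma-voom (limma 3.58.1), a replicate block, a GC and length correction (mgcv 1.9.3), and each library left out. The procedure was also tested on simulated data. It recovered 40 of 98 genes changed 1.5-fold and 77 of 93 changed 2-fold, with 4 false calls among 121. Changes of about 1.5-fold can therefore be missed. The simulation changed far fewer genes than were called here and drew libraries independently, without a shift like that of shCTR 4. Its rates therefore do not measure those of this comparison. RPKM used merged exons of GENCODE 29. Promoters came from RefSeq on GRCh38.p14. The position of shCTR 4 used log2 CPM with a pseudocount of 0.1. The text names all 37 members, NSD2 and, per related list, the 3 called genes of smallest p. It also names cell type markers and genes that overlap or copy a member. Other genes of the lists are said to be chosen later. The members and all lists were chosen with earlier results of these data known.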

Additional observations from a re-analysis of the deposited data

How the results depend on the processing

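Members that rose numbered 21 to 24 and members that fell 1 to 2 under all 11 alternatives that left no library out of the input. These include the fits with a replicate block, whose comparison rested on libraries 1 and 2 of each group. The 24 came from the GC and length correction with replicate block. No member that passed the test changed sign under any alternative, but sizes moved. The GC and length correction moved them in both directions, with a member median log2 fold change of 0.39 against 0.44 as reported. ATF4 stood at 0.39 against 0.54 and CEBPB at 0.51 against 0.82, while PHGDH stood at 0.76 against 0.68. Leaving out each library in turn gave 1116 to 4251 genes higher and 1320 to 4011 lower, 11 to 23 members higher and 1 to 2 lower. By class this was 7 to 10 regulators, 2 to 7 enzymes, 0 to 1 transporters and 1 to 5 synthetases higher, and 1 to 2 transporters and 0 others lower. DESeq2 called 2 members lower, both of them transporters. The GC and length correction with replicate block called 2 members lower, of which 1 regulator, and 1 transporter higher. That regulator was ATF5 (-0.38, adjusted p = 0.00900) and the transporter SLC7A11 (0.34, adjusted p = 0.0262). The replicate block alone gave 21 members higher and 1 lower, 3242 genes higher and 3001 lower, and ended the call of PPP1R15A (adjusted p = 0.112). Only numbers 1 and 2 recur in both groups, and a library whose number occurs in 1 group is taken up by its own block term. The group difference in the block fits therefore came from libraries 1 and 2 alone, with 1 residual degree of freedom. Those fits cannot show whether a result holds across all controls. The correlations of same-numbered libraries were -0.05 and -0.065. The labels do not say that a number marks a shared batch, so whether such libraries share more than a number is not known. Sign changes were limited to members not called. VLDLR moved to 0.03 with the GC and length correction and 0.17 with the block added, and SLC7A5 to 0.06 with the block. With each library left out, STC2 ran from -0.06 to 0.15, SLC7A5 from -0.18 to 0.00 and SLC7A11 from -0.08 to 0.11. SLC3A2 moved to 0.01 with the block and SLC1A4 to 0.00 with correction and block. MARS moved to 0.01 with upper-quartile scaling, 0.05 with the block, 0.01 with the correction, 0.07 with both, 0.01 without shNSD2 2 and 0.05 without shNSD2 3. The cause of these changes was not tested. Depth limited mainly ALDH1L2, at 30 to 62 counts per library.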
